A study of Rattus norvegicus with 90 samples.

Results

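Newborn male Wistar Han rats were given human umbilical cord mesenchymal stromal cells (HuMSC) intravenously at postnatal day 5 (P5), after 5 days of systemic inflammation, and their brain CD11b/c-positive cells were profiled by RNA sequencing at P7. The results here concern the lower doses, 20 and 50 M cells per kg (M for mega, HuMSC20 and HuMSC50, 3 libraries each), which were chosen by their sample titles and make up 6 of the 90 libraries of the study. They were set against the 3 libraries of injured rats of the same sequencing run, which received vehicle in place of cells, and the 2 doses are also shown apart. The injury was the same in all of them, 20 µg per kg of recombinant mouse IL-1β into the peritoneum, 2 injections a day from P1 to P4 and 1 at P5. The uninjured controls received PBS in place of the cytokine and of the cells, and HuMSC125 denotes injured rats given 125 M cells per kg by the same route. Brains without olfactory bulbs and cerebellum were taken 48 h after the cells, dissociated enzymatically and passed over CD11b/c magnetic beads. The study gave these 3 doses at 3 ages by the intravenous or the intranasal route, which yielded 30 groups of 3 libraries. Only males were studied, and no label states that the replicates of a group came from separate litters or extractions, so that p-values speak only of the spread among these libraries, which may be technical.

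Microglia are the resident macrophages of the brain, and in the newborn they proliferate, clear cell debris and take part in synapse and myelin formation. IL-1β activates the NF-κB pathway, which drives genes of cytokines, chemokines and feedback inhibitors, and immediate early genes respond within minutes both to such signals and to the dissociation of tissue. Mesenchymal stromal cells are studied as a treatment because they release factors that act on immune cells, and cells given intravenously pass through the lung before they can reach the brain.

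The 15 intravenous P7 libraries held 13.4 to 34.3 M counts, and log2 expression correlated at r of 0.955 to 0.991 between replicates. Of the 10 markers set for microglia, 9 were tested, and Fcrls was not analysed here. Levels are given in CPM (a gene's counts scaled to M counts of the library). In the injured and lower-dose libraries the markers ran from 218 CPM for the lowest Tmem119 value to 6520 CPM for the highest Csf1r value. 2 of the 6 lower-dose libraries stood apart. HuMSC20 replicate 1 was rich in neuronal transcripts: the mean log2 CPM of 26 neuron markers was 4.96 there, 2.58 above the median of the run, against 2.38 and 2.92 in the other HuMSC20 libraries and 1.89 to 2.72 with HuMSC50. HuMSC125 replicates 1 and 2 were as rich, at 4.90 and 5.04. HuMSC50 replicate 3 held 0.487% of its counts in mitochondrially encoded genes, against 4.15% to 15.4% in the 14 other libraries. Values without these libraries are given below beside the results they touch, an alternative chosen after the data were seen.

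With all libraries, no gene passed an adjusted p of 0.05 in either dose against injured (edgeR quasi-likelihood test on counts of 14698 genes, Benjamini-Hochberg adjustment), so that 0% was called and single genes are given below as values. The smallest adjusted p was 0.114 for HuMSC20, 0.387 for HuMSC50 and 0.342 for the mean of both doses. At an unadjusted p under 0.05, edgeR counted 2099 genes for HuMSC20 (11.3% higher, 2.96% lower), 876 for HuMSC50 (1.99% and 3.97%) and 1565 for the mean of both (7.03% and 3.61%). DESeq2 called 720 genes higher (4.90%) and 30 lower (0.204%) with HuMSC20, 3 higher and 18 lower with HuMSC50 (0.0204% and 0.122%), and 171 higher and 27 lower for the mean of both (1.16% and 0.184%). Limma called 0, 3 and 0 genes in the same order. Without the neuron-rich libraries and HuMSC50 replicate 3, edgeR called 81 genes for HuMSC20, all higher (0.539%), 0 for HuMSC50 (DESeq2 and limma were not run without these libraries), and 99 higher (0.658%) and 9 lower (0.0598%) for the mean of both. In this reduced set each lower dose had 2 libraries and HuMSC125 had 1, which was assumed to vary like the others. The calls of this set against injured did not appear when only the neuron-rich libraries were left out. Leaving out HuMSC20 replicate 2 alone gave 662 calls for HuMSC20, and leaving out HuMSC50 replicate 2 alone gave 1 for HuMSC50.

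The largest differences from injured lay in transcripts of neurons and of the oligodendrocyte lineage, which were higher at both doses. Over the 26 neuron markers the median log2 fold change was 2.84 with HuMSC20 and 1.33 with HuMSC50, against -0.03 and 0.01 over all genes, and all 26 differences were positive at each dose. In 19 of the 26, every one of the 6 lower-dose libraries lay above all 3 injured libraries, where 3.83% of all genes did so. The summed level of the list was 146 to 202 CPM in the injured libraries, 604 to 4598 CPM with HuMSC20 and 398 to 920 CPM with HuMSC50, and no neuron marker was at 0 throughout a group. Whether cells of these types or free RNA passed the beads in these libraries was not tested, and in bulk samples more cells of a type and more RNA per cell cannot be told apart.

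Kif1a, a motor protein of axonal vesicle transport, measured 62.9, 55.2 and 85.3 CPM in the injured libraries, 2974, 351 and 566 CPM with HuMSC20 and 355, 217 and 636 CPM with HuMSC50. The lowest treated library was thus above every injured one, while the first HuMSC20 library exceeded the others by far. The log2 fold change of the mean of both doses was 3.42 ± 0.81 (edgeR adjusted p = 0.342). With HuMSC20 the difference was 4.26 ± 0.89 and with HuMSC50 2.57 ± 0.82. Akap6, an anchoring protein of protein kinase A in neurons and muscle, differed by 3.45 ± 0.80, and Dcx, a microtubule protein of young migrating neurons, by 2.53 ± 0.70. Among the other neuronal genes with the smallest p-values for HuMSC20 were Kif5c, a kinesin heavy chain (3.71 ± 0.76), Ank2, a membrane scaffold of axons (3.95 ± 0.86), Map2, a microtubule protein of dendrites (2.97 ± 0.68), Tnr, a matrix glycoprotein made by oligodendrocytes and interneurons (4.11 ± 0.88), and Elfn2 (3.56 ± 0.75). In the uninjured controls Kif1a measured 82.0, 68.5 and 192 CPM, of which the third, the highest, lay just under the lowest treated library.

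Oligodendrocyte markers showed the same order, with medians of 2.81 with HuMSC20 and 1.38 with HuMSC50 over 15 tested members. Of these, 13 were higher in the mean of both doses and 6 lay above all injured libraries in every treated library, against 3.83% of all genes. The summed level was 341 to 375 CPM in injured, 471 to 1711 CPM with HuMSC20 and 396 to 618 CPM with HuMSC50, and Opalin was at 0 in all injured and HuMSC50 libraries. Bcas1, a gene of oligodendrocytes that are beginning to make myelin, measured 6.58, 4.66 and 9.83 CPM in injured, 166, 20.8 and 38.5 CPM with HuMSC20 and 36.7, 19.3 and 47.4 CPM with HuMSC50. The second HuMSC50 library was the lowest of the treated ones and still above the highest injured one. The fold change of the mean was 2.87 ± 0.75. With HuMSC20 the largest glial differences included Ugt8, which makes the galactolipids of myelin (3.60 ± 0.81), Sox10, the transcription factor of the whole lineage (2.99 ± 0.83), and Gpr17, a receptor of committed precursors (3.40 ± 0.87), while Bcas1 stood at 3.43 ± 0.82 with HuMSC20 and 2.31 ± 0.79 with HuMSC50. The 10 markers of oligodendrocyte precursors tested were all higher, with medians of 2.07 and 0.80, but 1 of them cleared the injured libraries in all 6 treated libraries (3.83% of all genes did). The 15 astrocyte markers had medians of 0.56 and 0.21.

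These differences were smaller but still present in the reduced set, where the medians for the mean of both doses were 1.42 over the neuron list, 1.40 over the oligodendrocyte list and 0.87 over the precursor list. By dose the neuron median there was 1.58 with HuMSC20 and 1.25 with HuMSC50. The neuron-rich libraries had been left out by their level of this same neuron list, which narrows the spread of its genes. HuMSC20 replicate 1, which was among them, was also the highest lower-dose library for the oligodendrocyte and precursor lists. Its mean log2 CPM there was 4.821 (next library 3.407) and 5.845 (next 3.925). Calls in the reduced set are therefore no independent test of these lists, or of other genes of neurons and oligodendrocytes. In this fit edgeR called 9 of 26 neuron markers, 4 of 15 oligodendrocyte markers and 1 of 10 precursor markers higher and none lower, against 0.658% of all genes called higher and 0.0598% lower. Among the genes it called, Kif5c was higher by 2.32 (SE 0.32, edgeR adjusted p = 0.0392), Mapt, which encodes tau, by 1.55, and Mbp, the myelin basic protein, by 1.46. With HuMSC20 alone the 81 genes called were again led by Apc2 (2.40), Mapk8ip1 (1.18), Kif5c (2.56) and Kif1a (2.77), all expressed in neurons. The same fit called no gene for HuMSC50 alone. The plot of list levels per library shows both the spread among the treated libraries and the gap to the injured ones.

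**Figure D1:**
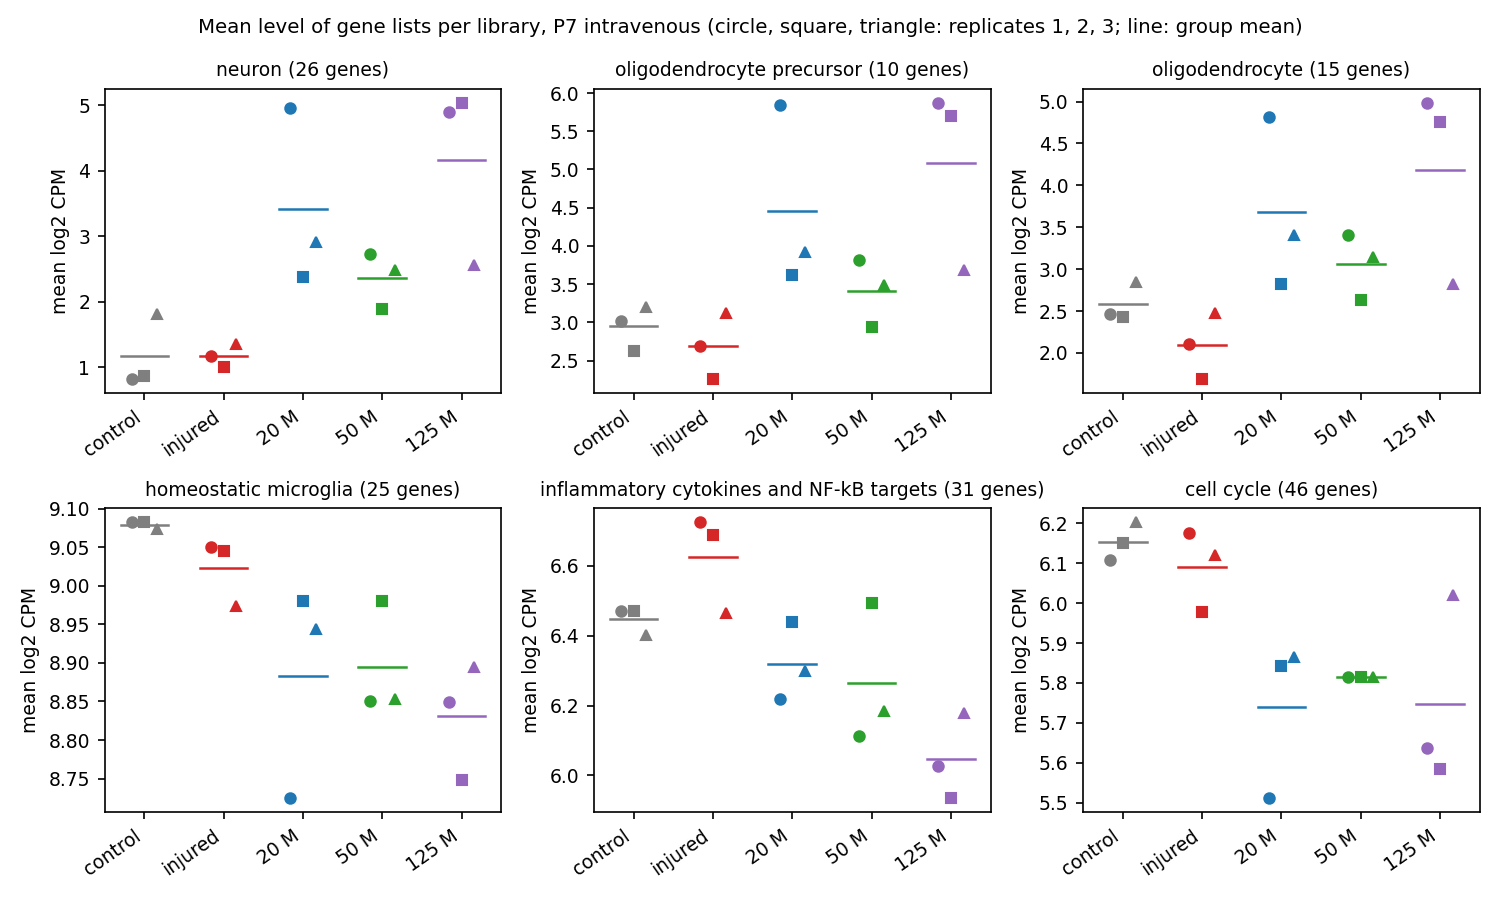
Mean log2 CPM of 6 gene lists in each of the 15 intravenous P7 libraries, with 1 symbol per library and a line at each group mean, from uninjured control to 125 M cells per kg. All 6 lower-dose libraries lie above the injured libraries for the neuron list (1.89 to 4.96 against 1.01 to 1.35), and all 6 lie below them for the cell cycle list (5.51 to 5.86 against 5.98 to 6.18).

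Genes of inflammatory signalling were lower at both doses, by smaller amounts. Of 31 tested genes of the list of inflammatory cytokines and NF-κB targets, 29 had a negative difference in the mean of both doses, with a median log2 fold change of -0.33, and the median was -0.33 with HuMSC20 and -0.32 with HuMSC50. None passed the adjusted threshold in edgeR, where DESeq2 called 3 lower (0.184% of all genes). In 5 of the 31 every treated library lay below every injured one, where 2.45% of all genes did so. The mean log2 CPM of the list was 6.46 to 6.73 in the injured libraries, 6.22 to 6.44 with HuMSC20 and 6.11 to 6.49 with HuMSC50, so that the second HuMSC50 library overlapped with the third injured one. In the uninjured controls it was 6.40 to 6.47. In the reduced set the median of the list was -0.28.

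Among the chemokines, Ccl3 (macrophage inflammatory protein 1α) measured 892, 949 and 856 CPM in injured, 477, 698 and 675 CPM with HuMSC20 and 503, 623 and 524 CPM with HuMSC50. The groups did not overlap, the fold change of the mean was -0.63 ± 0.14 (edgeR adjusted p = 0.342), and in the reduced set edgeR called Ccl3 at -0.53 (adjusted p = 0.0426). Cxcl2, which attracts neutrophils, measured 443, 405 and 355 CPM in injured, 234, 288 and 326 CPM with HuMSC20 and 245, 332 and 208 CPM with HuMSC50, a difference of -0.56 ± 0.14. Cxcl10, which attracts T cells, differed by -0.53 ± 0.15, and Ccrl2, a receptor that presents chemerin to other cells, by -0.67 ± 0.14. By dose, Ccl3 differed by -0.54 ± 0.17 with HuMSC20 and -0.71 ± 0.17 with HuMSC50, and Cxcl2 by -0.51 ± 0.16 and -0.62 ± 0.16. For each of these 4 genes every treated library lay below every injured one. Il1b itself differed by -0.20 ± 0.14 and overlapped between groups, as did Il1rn, which encodes the natural antagonist of its receptor (-0.42 ± 0.24), while Ptgs2, the inducible cyclooxygenase, was lower in every treated library (-0.49 ± 0.24, edgeR adjusted p = 0.491).

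The gene with the smallest p-value was Osgin1, an oxidative stress response gene. It measured 7.97, 17.7 and 14.4 CPM in injured, 6.82, 7.39 and 5.91 CPM with HuMSC20 and 3.31, 5.71 and 4.73 CPM with HuMSC50. The highest treated value lay just under the lowest injured one, and the injured libraries spread over the widest range. The fold change was -1.27 ± 0.23 (edgeR adjusted p = 0.342), and in the reduced set it was called at -1.30 (edgeR adjusted p = 0.0426). Plau, the urokinase plasminogen activator, differed by -0.81 ± 0.16 with all libraries and was called at -0.83 in the reduced set. The 9 genes called lower there were Atp2a3, Kifc1, Plau, Ccl3, Fbxw4, Osgin1, Kif18b, Kif2c and Dtx2. Of these, Kifc1, Kif18b and Kif2c encode kinesins of the mitotic spindle. None of the 9 was called with all libraries, where Kifc1 stood at -0.23 and Dtx2 at -0.30 (edgeR adjusted p = 0.809 and 0.683). Of the 46 genes of the cell cycle list, edgeR called 1 lower in the reduced set, against 0.0598% of all genes.

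Immediate early and feedback genes stood lower than injured by a larger median with HuMSC50 than with HuMSC20. The median over 31 genes of the immediate early and dissociation list was -0.13 with HuMSC20 and -0.32 with HuMSC50, and 2 and 10 of the 31 lay below all injured libraries, where 10.3% and 6.35% of all genes did. Dusp1, a phosphatase that switches off MAP kinases, measured 1796, 1893 and 1629 CPM in injured, 1136, 1465 and 1334 CPM with HuMSC20 and 1114, 1129 and 646 CPM with HuMSC50. The third HuMSC50 library, poor in mitochondrial counts, was the lowest, and the other HuMSC50 libraries were close to the first HuMSC20 library. Rgs1, a regulator of chemokine receptor signalling, measured 829.6, 963 and 837 CPM in injured, 466, 613 and 649 CPM with HuMSC20 and 640.4, 523 and 540.1 CPM with HuMSC50, and its dose means of 576 ± 97.1 and 568 ± 63.3 CPM (SD, n = 3) differed by less than their spread. Osm, an IL-6 family cytokine of macrophages, was lower in all treated libraries (-0.58 ± 0.13), at 55.8, 61.8 and 59.6 CPM with HuMSC20 and 34.9, 51.8 and 46.5 CPM with HuMSC50 against 77.5, 85.8 and 65.1 CPM. The genes with the smallest p-values for HuMSC50 after Osgin1 (-1.55 ± 0.28) were Socs3, the feedback inhibitor of STAT3 (-0.91 ± 0.17), Hcar2, a receptor for ketone bodies and niacin (-0.88 ± 0.17), P2ry6, the UDP receptor of phagocytic microglia (-0.65 ± 0.13), Osm (-0.78 ± 0.16) and the transcription factor Klf4 (-0.94 ± 0.19). All of them, Osgin1 included, had an edgeR adjusted p of 0.387, and in DESeq2 their adjusted p-values ran from 0.00256 to 0.0168. Zfp36, which destabilises cytokine transcripts, and Ier3, an NF-κB target that protects from cell death, differed by -0.74 ± 0.19 and -0.74 ± 0.18 with HuMSC50. With HuMSC20 Socs3 differed by -0.21 ± 0.17, Klf4 by -0.28 and Osgin1 by -0.99. In the reduced set the list median was -0.12 with HuMSC20 and -0.48 with HuMSC50.

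**Figure D2:**
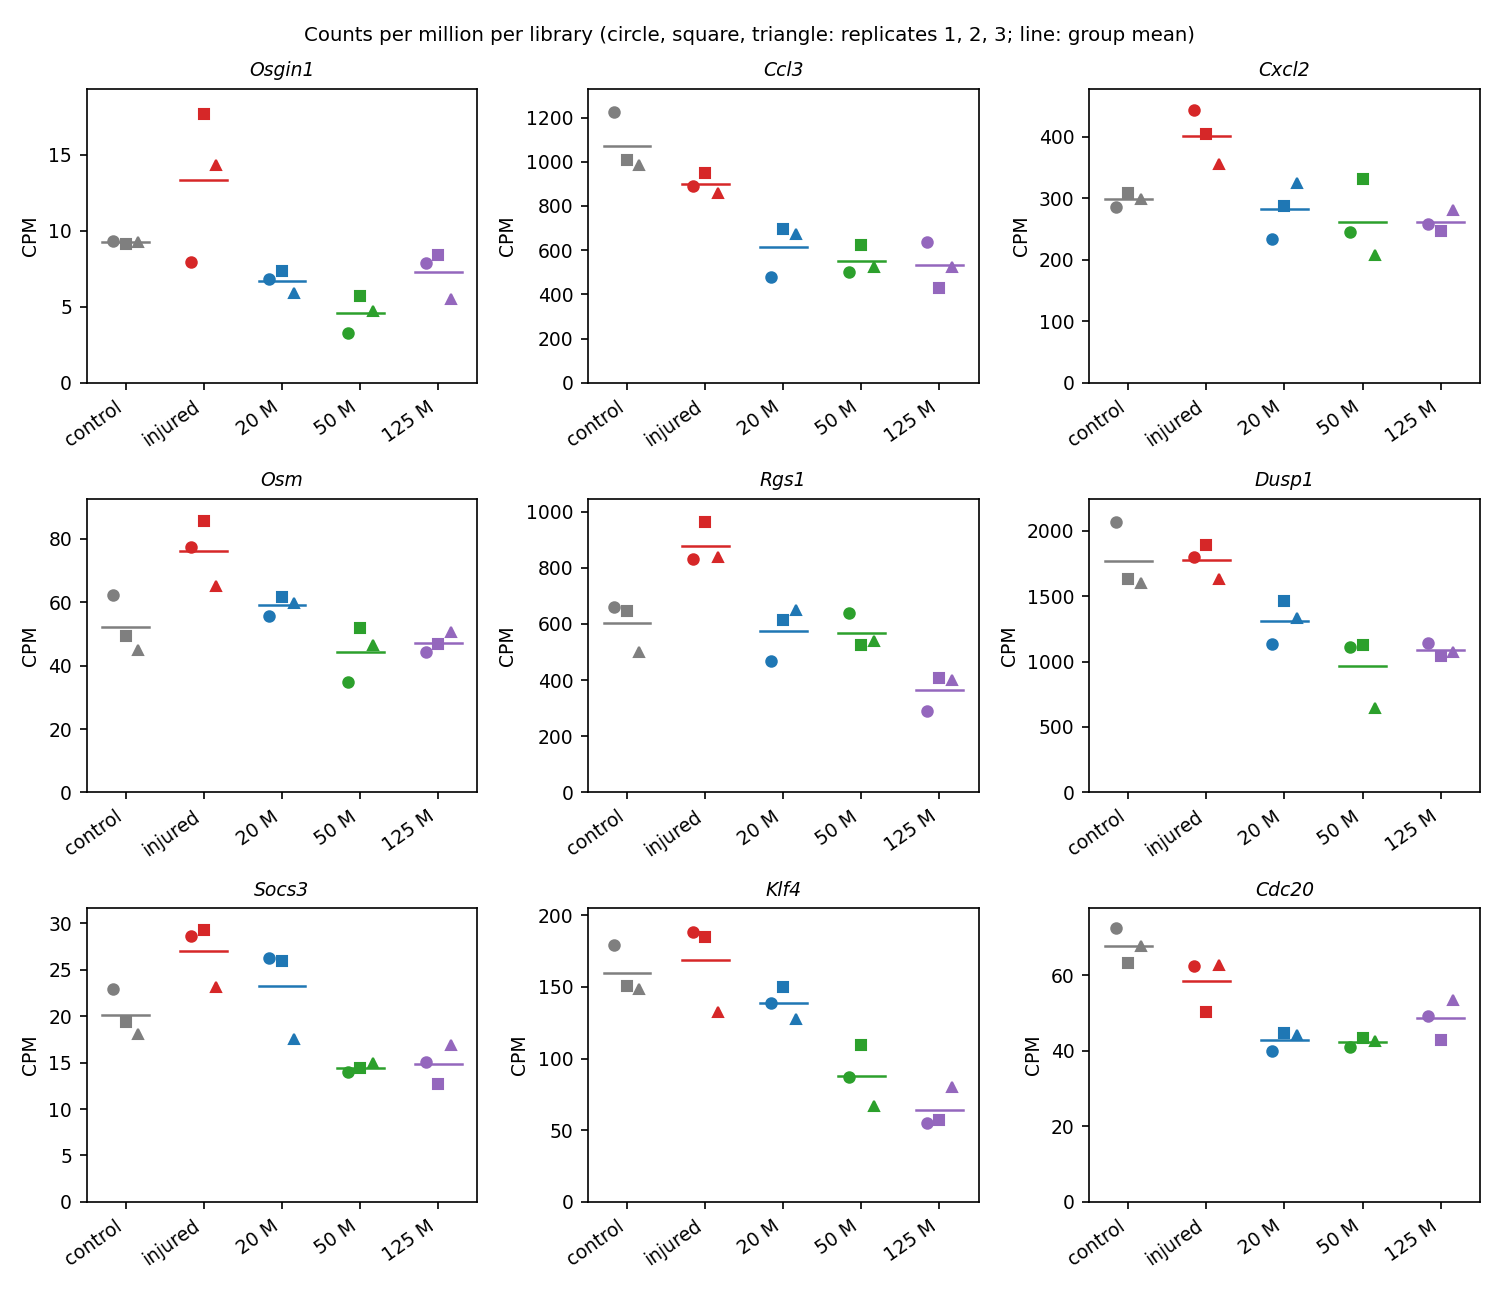
CPM of 9 genes in each library, with 1 symbol per library, a line at each group mean and an axis from 0, for control, injured and the 3 intravenous doses in M cells per kg. For Ccl3 the injured libraries lie between 856 and 949 CPM and the lower-dose libraries between 477 and 698 CPM, whereas for Socs3 the HuMSC20 libraries overlap with the injured ones and the HuMSC50 libraries do not.

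Many genes of the inflammatory list are known NF-κB targets, and their promoters were read from RefSeq (GRCr8), taking the 250 bases before the annotated start on the gene's strand. Capitals mark matches to the NF-κB consensus site on either strand. Of the 31 tested genes of the inflammatory list 22 had a promoter entry, and 9 of those (40.9%) held a match, against 3.54% of all 33469 promoters. In the cell cycle list 4 of 36 promoters (11.1%) held one. The 2 shown are the chemokine genes of the list with the smallest p-values that have an entry, Cxcl2 at chr14:17467256-17467505 on the minus strand and Cxcl10 at chr14:15988816-15989065 on the plus strand.
Cxcl2: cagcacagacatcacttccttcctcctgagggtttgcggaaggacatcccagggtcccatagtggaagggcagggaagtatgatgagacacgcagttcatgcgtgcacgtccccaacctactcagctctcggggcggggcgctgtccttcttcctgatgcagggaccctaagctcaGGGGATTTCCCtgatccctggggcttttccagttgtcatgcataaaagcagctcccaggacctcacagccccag
Cxcl10: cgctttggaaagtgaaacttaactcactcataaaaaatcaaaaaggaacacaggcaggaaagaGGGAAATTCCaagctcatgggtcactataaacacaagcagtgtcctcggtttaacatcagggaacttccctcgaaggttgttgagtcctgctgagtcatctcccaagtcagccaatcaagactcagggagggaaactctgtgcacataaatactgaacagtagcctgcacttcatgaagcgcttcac
The Cxcl2 stretch holds 3 overlapping matches and the Cxcl10 stretch 1. A match describes letters only and is no evidence of binding.

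Cell cycle genes were lower at both doses. All 46 tested members had a negative difference in the mean of both doses, with a median of -0.30 (-0.38 with HuMSC20 and -0.24 with HuMSC50), and in 20 of the 46 every treated library lay below every injured one, against 2.45% of all genes. Of these 46, edgeR called 0, 22 were lower at an unadjusted p under 0.05 (3.61% of all genes), and DESeq2 called 4 lower (0.184% of all genes). The mean log2 CPM of the list was 5.98 to 6.18 in injured, 5.51 to 5.86 with HuMSC20 and 5.81 to 5.82 with HuMSC50, while the controls measured 6.11 to 6.20. The lowest value was that of the neuron-rich library, and in the reduced set the median was -0.24 (-0.25 with HuMSC20 and -0.29 with HuMSC50). Cdc20, the activator of the anaphase-promoting complex, measured 62.5, 50.1 and 62.7 CPM in injured, 39.8, 44.7 and 44.1 CPM with HuMSC20 and 41.0, 43.3 and 42.6 CPM with HuMSC50. The treated libraries varied little and none overlapped with injured, and the fold change was -0.46 ± 0.10 (edgeR adjusted p = 0.342). Plk1, a kinase of mitotic entry, differed by -0.53 ± 0.12, Cdca3 by -0.52 ± 0.13, and Mki67, the proliferation marker, by -0.37 ± 0.17, each with all treated libraries below the injured ones. By dose, Cdc20 differed by -0.45 ± 0.11 with HuMSC20 and -0.47 ± 0.11 with HuMSC50. Kif2c, a microtubule depolymerase of the spindle, differed by -0.44 ± 0.11 and was called at -0.39 in the reduced set (adjusted p = 0.047).

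The cell cycle homology region, searched as TTTGAA or TTTAAA on both strands, is the element through which many mitotic genes are shut off outside division. It stood in 23 of the 36 cell cycle genes with a promoter entry (63.9%, of 46 tested), against 25.4% of all promoters. The promoters of the 2 list members with the smallest p-values are shown with the matches in capitals, Cdc20 at chr5:137255800-137256049 on the minus strand and Plk1 at chr1:186147408-186147657 on the plus strand.
Cdc20: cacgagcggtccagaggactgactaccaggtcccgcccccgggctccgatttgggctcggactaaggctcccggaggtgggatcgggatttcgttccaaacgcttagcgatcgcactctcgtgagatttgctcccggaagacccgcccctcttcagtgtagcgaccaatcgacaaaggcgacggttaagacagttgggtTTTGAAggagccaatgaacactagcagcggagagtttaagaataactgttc
Plk1: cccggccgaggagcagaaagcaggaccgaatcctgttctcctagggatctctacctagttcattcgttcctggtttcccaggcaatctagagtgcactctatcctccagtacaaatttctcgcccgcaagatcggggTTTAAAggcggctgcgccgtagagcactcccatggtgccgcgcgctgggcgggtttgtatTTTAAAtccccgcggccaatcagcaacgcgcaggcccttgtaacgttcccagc
The Cdc20 stretch holds 1 match and the Plk1 stretch 2. Here too a match describes letters only and is no evidence of binding. The share of promoters with a match is a property of the list, whatever its levels in these libraries.

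Further lists of microglial programmes also had negative medians. The median over 43 interferon response genes was -0.29 with HuMSC20 and -0.12 with HuMSC50, over 22 antigen presentation genes -0.29 and -0.17, over 28 genes of disease-associated and axon-tract microglia -0.26 and -0.32, and over 30 genes of complement and phagocytosis -0.19 and -0.14. In the reduced set these medians were -0.16 and -0.12 for interferon genes, -0.19 and -0.41 for antigen presentation genes, which turned the order of the doses, -0.20 and -0.20 for genes of disease-associated and axon-tract microglia, and -0.12 and -0.18 for complement and phagocytosis. Among the interferon genes 16 of 43 lay below all injured libraries with HuMSC20 and 3 of 43 with HuMSC50, where 10.3% and 6.35% of all genes did. RT1-S3, a class Ib MHC gene with close relatives among which reads can be split, differed with HuMSC20 by -0.69 ± 0.20, and Psmb9, a subunit of the immunoproteasome, by -0.59 ± 0.20. Lgals3, the galectin of activated microglia, differed by -0.67 ± 0.20, with 1 injured library inside the treated range. Lyve1, a receptor of border-associated macrophages, was lower in all treated libraries (-0.62 ± 0.19). Homeostatic microglia genes had medians of -0.20 and -0.14 over 25 genes (-0.10 and -0.06 in the reduced set), and of these 0 were called. P2ry12, the ADP receptor of surveying microglia, measured 1371, 1519 and 1371 CPM in injured, 1073, 1261 and 1337 CPM with HuMSC20 and 1622, 1592 and 604 CPM with HuMSC50, where the library poor in mitochondrial counts alone was low. The difference was -0.19 ± 0.23, and 0.03 in the reduced set. Cx3cr1, the fractalkine receptor, differed by -0.29 ± 0.14, and Igf1, Mrc1 and Tmem119 overlapped between groups.

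Genes of cholesterol synthesis and of mast cells stood higher with HuMSC20 than with HuMSC50, although no gene of either list was called in edgeR. Of 26 cholesterol genes 25 had a positive difference with HuMSC20, with a median of 0.12, and 13 with HuMSC50, with a median of 0.01. Hmgcs1, an early enzyme of the pathway, differed by 0.47 ± 0.17 with HuMSC20, and Scd, the desaturase of fatty acids, by 1.17 ± 0.31 with HuMSC50. In the reduced set the cholesterol median was 0.13 with HuMSC20 and -0.01 with HuMSC50. Tpsb2, a mast cell tryptase, measured 3.73, 5.37 and 4.73 CPM in injured, 18.9, 11.1 and 8.53 CPM with HuMSC20 and 4.25, 7.66 and 2.61 CPM with HuMSC50 (1.48 ± 0.44 for HuMSC20). The summed level of 12 mast cell markers was 86.3 to 202 CPM in injured, 170 to 251 CPM with HuMSC20 and 72.3 to 182 CPM with HuMSC50, so the groups overlapped. The median over the mast cell list was 0.61 with HuMSC20 and -0.11 with HuMSC50, and 0.49 and 0.18 in the reduced set.

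**Figure D3:**
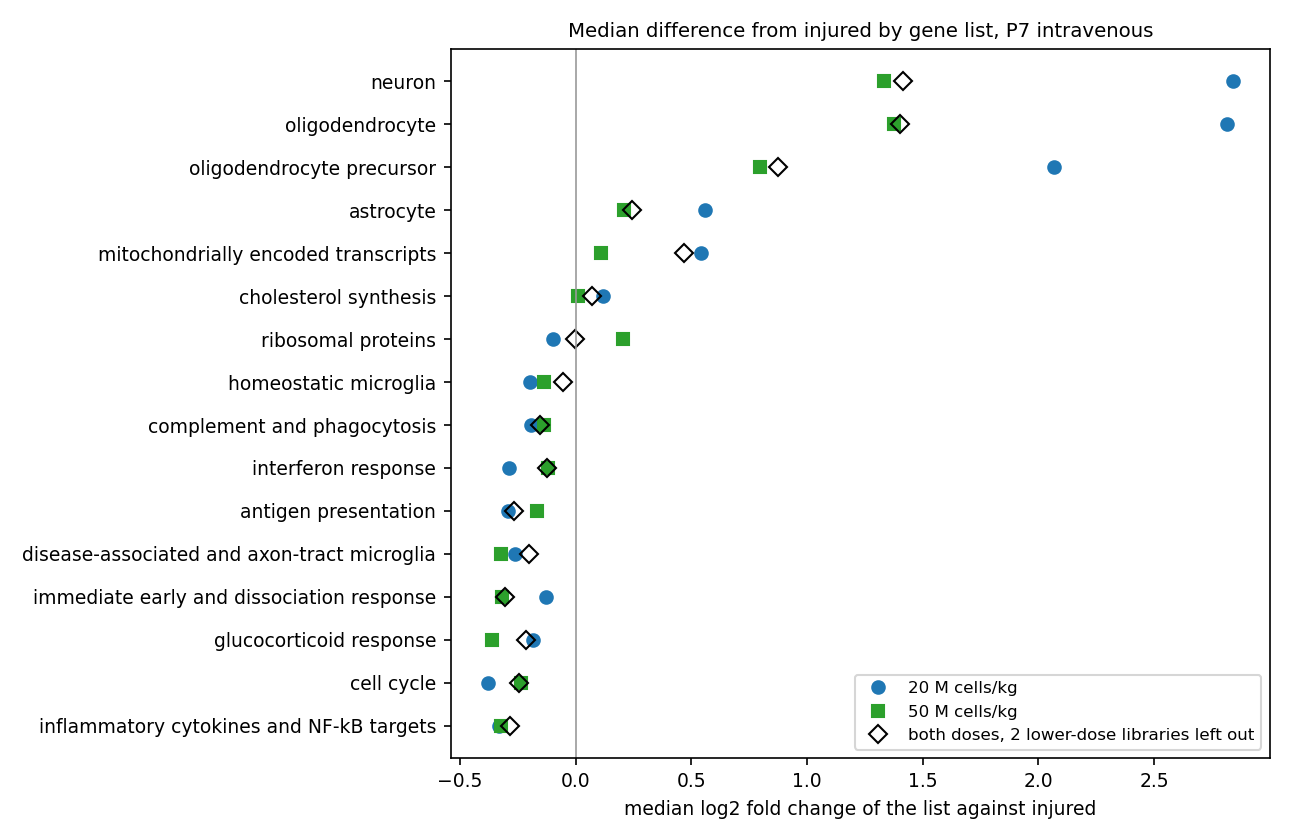
Median log2 fold change against injured over the tested genes of each list, with filled circles for 20 and squares for 50 M cells per kg and open diamonds for the mean of both doses without the 2 lower-dose libraries that stood apart (and without HuMSC125 replicates 1 and 2). The neuron median stands at 2.84 (HuMSC20), 1.33 (HuMSC50) and 1.42 (mean of both, reduced set), whereas the inflammatory and cell cycle medians stay between -0.38 and -0.24 in all 3.

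The 2 doses were then compared with each other. EdgeR called 0 of 14698 genes (0%), with a smallest adjusted p of 0.405, where 1803 genes had an unadjusted p under 0.05 (5.34% higher and 6.93% lower with HuMSC50), DESeq2 called 1 higher and 5 lower with HuMSC50 (0.00680% and 0.0340%) and limma called 0. Without HuMSC20 replicate 3 edgeR called 4. Mif, a pro-inflammatory cytokine that counteracts glucocorticoids, measured 50.5, 35.2 and 27.1 CPM with HuMSC20 and 12.4, 17.4 and 9.33 CPM with HuMSC50, against 27.5, 22.9 and 24.8 CPM in injured. The dose groups did not overlap and lay on either side of the injured mean, and HuMSC50 differed from HuMSC20 by -1.53 ± 0.26 (edgeR adjusted p = 0.405, 0.000116 in DESeq2). The other genes with the smallest p-values followed no single list. Ubald2 differed by -0.87 ± 0.17, Ctif, a translation factor, by -0.76 ± 0.18, Trim55, a muscle ubiquitin ligase, by 0.71 ± 0.16, Klf2, a transcription factor of quiescent endothelium and T cells, by -1.32 ± 0.39, the transcription factor Zfp423 by -1.29 ± 0.26, and Tnnt1, a troponin subunit, by 1.11 ± 0.22. Socs3 measured 28.6, 29.3 and 23.1 CPM in injured, 26.3, 25.9 and 17.6 CPM with HuMSC20 and 13.9, 14.4 and 14.9 CPM with HuMSC50, a dose difference of -0.69 ± 0.17. Klf4 measured 139, 149.6 and 128 CPM with HuMSC20 and 87.3, 109.8 and 67.0 CPM with HuMSC50, a difference of -0.66 ± 0.19, so that the HuMSC20 libraries lay within the injured range of 189, 185 and 132 CPM except the third. Between the doses Tpsab1, another mast cell tryptase, differed by -1.39 ± 0.38.

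By list, the median dose difference was -1.46 over neuron genes with all libraries and -0.26 in the reduced set. For immediate early genes it was -0.19 (-0.31 in the reduced set), for cholesterol genes -0.15 (-0.12), for interferon genes 0.18 (0.03) and for cell cycle genes 0.10 (-0.01). Parp9 and Gbp5, both induced by interferon, were higher with HuMSC50 by 0.47 ± 0.13 and 0.38 ± 0.11, with no overlap between the doses, where 5.61% of all genes lay above and 4.94% below HuMSC20 in this way. Across the inflammatory list the 2 doses differed by a median of 0.04, with 16 of 31 genes higher with HuMSC50. Ribosomal protein genes had a median of 0.34 and mitochondrially encoded transcripts of -0.54, and HuMSC50 replicate 3 was the highest library for the former and the lowest for the latter. In the reduced set these medians were 0.10 and 0.24, the second with its sign turned.

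Set against the highest intravenous dose, the lower doses had higher levels of several inflammatory and immediate early genes, though edgeR called 0 of 14698 (0%, with 1555 at an unadjusted p under 0.05, 3.31% higher and 7.27% lower). DESeq2 called 17 higher and 2 lower (0.116% and 0.0136%) and limma called 4059 of 14698, 1323 higher and 2736 lower. Limma weighted the neuron-rich HuMSC125 replicates 1 and 2 at 1.75 and 2.06, and HuMSC125 replicate 3 at 0.238. The neuron-rich HuMSC20 replicate 1 had a weight of 0.327. What part these weights had in the limma count was not tested. Without HuMSC20 replicate 1 edgeR called 777, a fit in which the neuron-rich libraries were all in HuMSC125, and it called 2 without HuMSC20 replicate 3 and 1 without HuMSC50 replicate 3. Of 31 inflammatory genes 27 were higher at the lower doses, with a median of 0.25, and 25 of 31 immediate early genes were, with a median of 0.21. Without the neuron-rich libraries the inflammatory median was 0.09 and the immediate early median 0.07. The single genes that follow are given with all libraries, among them the neuron-rich HuMSC125 replicates 1 and 2. Il1b measured 456, 492 and 545 CPM with HuMSC20, 451, 616 and 503 CPM with HuMSC50 and 286, 345 and 369.6 CPM with HuMSC125, a difference of 0.61 ± 0.14 (edgeR adjusted p = 0.467), against 627, 655 and 478 CPM in injured. All lower-dose libraries were above all HuMSC125 libraries, as for 0.993% of all genes (0.463% lay below), and they overlapped with the injured ones. Rgs1 stood in the order injured, lower doses, HuMSC125, the last at 291, 406 and 402 CPM, and was higher at the lower doses by 0.64 ± 0.15. Icam1, the adhesion molecule, differed by 0.64 ± 0.14, Apold1 by 0.69 ± 0.13, the scavenger receptor Olr1 by 0.81 ± 0.17 and Hdc, the histamine-forming enzyme of mast cells, by 1.34 ± 0.31. Further differences of the same direction were those of Tnfaip3, a feedback inhibitor of NF-κB (0.84 ± 0.19), Klf4 (0.78 ± 0.17), and the immediate early genes Fosb (0.85 ± 0.20) and Nr4a2 (0.78 ± 0.21), with Slc4a5, a bicarbonate transporter, at 1.40 ± 0.29 and Pmaip1, a pro-apoptotic BCL2 family member, at 0.60 ± 0.14. Neuron genes went the other way, with a median of -1.40 that was -0.06 without the neuron-rich libraries.

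The uninjured controls of the run place the treated levels against those of rats without injury. Injured differed from control in 5 genes (2 higher, 0.0136%, and 3 lower, 0.0204%, edgeR), namely Ankrd55 (-2.56 ± 0.21), Sdc1 (1.65 ± 0.16), Ccdc8 (-1.43 ± 0.20), Nr4a2 (1.61 ± 0.24) and Gpd1 (-1.22 ± 0.19). Without injured replicate 1 or 2, or without any 1 control, 2 genes were called. The mean of both doses differed from control in 46 genes, 7 higher and 39 lower (0.0476% and 0.265%, 2310 at an unadjusted p under 0.05, 8.65% higher and 7.06% lower). The 2 comparisons share their controls. Leaving out 1 library gave counts from 5 to 124, with 6, 9 and 5 without control replicates 1, 2 and 3, 29, 23 and 25 without HuMSC20 replicates 1, 2 and 3, 21 without HuMSC50 replicate 2 and 124 without HuMSC50 replicate 3, and 350 genes were called in the reduced set.

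Ankrd55, a gene linked to autoimmune disease, measured 57.8, 64.6 and 68.0 CPM in control, 8.54, 9.56 and 14.1 CPM in injured, 8.93, 12.0 and 15.0 CPM with HuMSC20 and 14.9, 11.6 and 15.9 CPM with HuMSC50. All treated libraries stayed within or near the injured range and far under the controls, with a fall of the mean of both doses against control by 2.29 on the log2 scale (edgeR adjusted p = 2.92e-05). Sdc1, a cell surface proteoglycan, measured 12.7, 13.1 and 10.4 CPM in control, 43.8, 33.6 and 35.8 CPM in injured, 30.3, 41.8 and 36.7 CPM with HuMSC20 and 22.1, 29.1 and 26.7 CPM with HuMSC50, which put every HuMSC50 library below the injured ones and above the controls (treated against control 1.35 ± 0.15, HuMSC50 against injured -0.54 ± 0.16, edgeR adjusted p = 0.649). Nr4a2, a nuclear receptor induced as an immediate early gene, measured 80.5, 93.4 and 93.0 CPM in control, 297, 327 and 191 CPM in injured, 266, 226 and 218 CPM with HuMSC20 and 155, 278 and 159 CPM with HuMSC50, and overlapped between injured and treated. Gpd1, an enzyme between glycolysis and lipid synthesis, stood at 0.40 ± 0.17 against injured and fell against control (-0.82 ± 0.16). Against injured, Ankrd55 stood at 0.28 ± 0.18, Sdc1 at -0.30 ± 0.13, Ccdc8 at 0.29 ± 0.17 and Nr4a2 at -0.33 ± 0.20, none of them called. Against control, Nr4a2 rose by 1.28 ± 0.21 and Ccdc8 fell (-1.14 ± 0.16).

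Several further genes differed from control in the treated libraries, a difference that holds both the injury and the cells. Sgk1, a kinase induced by glucocorticoids, fell by 1.46 on the log2 scale, from 869, 773 and 791 CPM in control to 272, 364 and 383 CPM with HuMSC20 and 296, 291 and 183 CPM with HuMSC50, while injured libraries already stood at 419, 443 and 369 CPM. Myc fell by 1.08 and Il6st, the shared signal chain of the IL-6 family receptors, by 1.10, and injured libraries measured 183, 248 and 211 CPM for Il6st against 464, 486 and 599 CPM in control. Ccl3, described above, was lower than control as well (-0.88 ± 0.14, edgeR adjusted p = 0.0253), as were Cdc20 (-0.67 ± 0.10), Kif2c (-0.69 ± 0.11), Lyve1 (-1.09 ± 0.18) and Ctsb, the lysosomal protease cathepsin B (-0.72 ± 0.13). For Ccl3, Cdc20, Kif2c and Lyve1 every lower-dose library lay below both the controls and the injured libraries. Of all genes, 5.05% lay below the controls and 2.45% below the injured libraries in this way. The treated range of Ctsb reached into the injured one. Pdk4, a kinase that spares glucose and is induced by glucocorticoids, fell (-0.99 ± 0.17), as did Tnfaip2, an NF-κB target (-0.95 ± 0.17), Dsp, a desmosomal plaque protein (-2.02 ± 0.34), and Cd5, a surface protein of T cells (-1.12 ± 0.19), while Spsb1, an adaptor of a ubiquitin ligase, rose (0.85 ± 0.14). Among the cell cycle genes 44 of 46 were lower than control, with a median of -0.38. EdgeR called 2 of them lower, where it called 0.265% of all genes lower.

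**Figure D4:**
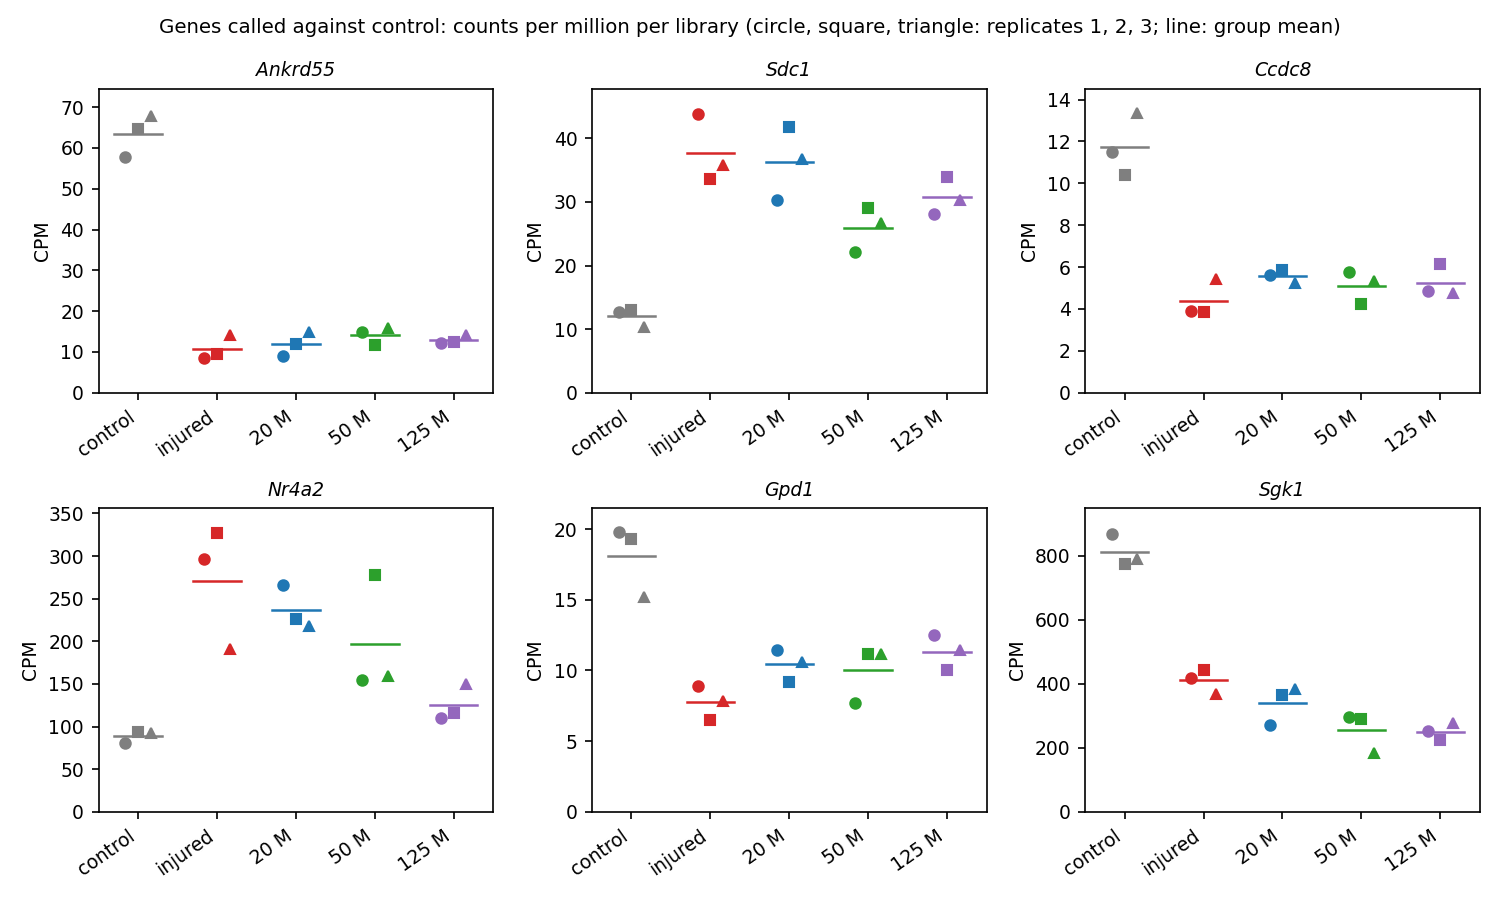
CPM of the 5 genes called between injured and control and of Sgk1 in each library, with 1 symbol per library, a line at each group mean and an axis from 0, doses in M cells per kg. For Ankrd55 the controls lie between 57.8 and 68.0 CPM and all injured and treated libraries between 8.54 and 15.9 CPM.

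The same doses given intranasally at P5 were sequenced in another run with its own injured libraries, so the 2 lower-dose effects can be compared as differences within each run. In the fit over 30 libraries edgeR called 0 of 14851 genes (0%, smallest adjusted p 0.0563, 1644 at an unadjusted p under 0.05), DESeq2 called 24 higher and 44 lower (0.162% and 0.296%) and limma called 118. Among the lists of microglial programmes the median difference was largest for cell cycle genes. The median lower-dose effect over 46 of them was -0.29 intravenously and 0.39 intranasally, and the difference was negative for all 46, with a median of -0.69. Gtse1, which delays the exit from G2 phase, differed by -1.04 ± 0.18, Cdc20 by -0.92 ± 0.16, and the mitotic kinesins Kif20a and Kif22 by -0.96 ± 0.18 and -0.91 ± 0.17. Mki67 stood at -0.37 intravenously and 0.39 intranasally, and Rrm2, a subunit of ribonucleotide reductase, at -0.52 and 0.45. Without the neuron-rich libraries edgeR called 61 genes, 42 higher (0.278%) and 19 lower (0.126%), and 7 of the 46 cell cycle genes were among the lower ones, Cdc20 with -0.90 (adjusted p = 0.021) and Plk1 with -0.96 (adjusted p = 0.0255). Without HuMSC50 replicate 3 as well it called 72, 47 higher (0.313%) and 25 lower (0.167%), with 8 cell cycle genes, and without replicate 2 of every group it called 9.

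The injured libraries of the 2 runs differed in this list. Its mean log2 CPM was 5.93 to 6.12 in the intravenous injured libraries against 6.06 to 6.14 in their controls, and 5.50 to 5.86 in the intranasal injured libraries against 6.26 to 6.39 in theirs. The treated libraries stood at 5.52 to 5.81 (HuMSC20) and 5.75 to 5.76 (HuMSC50) intravenously and at 5.88 to 6.11 and 5.81 to 6.02 intranasally. Route and run cannot be told apart beyond each run's own injured group. Neuron genes had a median effect of 2.08 intravenously and 0.00 intranasally, Kif1a with 3.43 and -0.45 (difference 3.88 ± 0.81). Sgk1 stood at -0.48 and 0.25, and Myc at -0.31 and 0.45. Inflammatory genes were lower by both routes, with medians of -0.33 and -0.20, and homeostatic genes had medians of -0.13 intravenously and 0.15 intranasally.

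**Figure D5:**
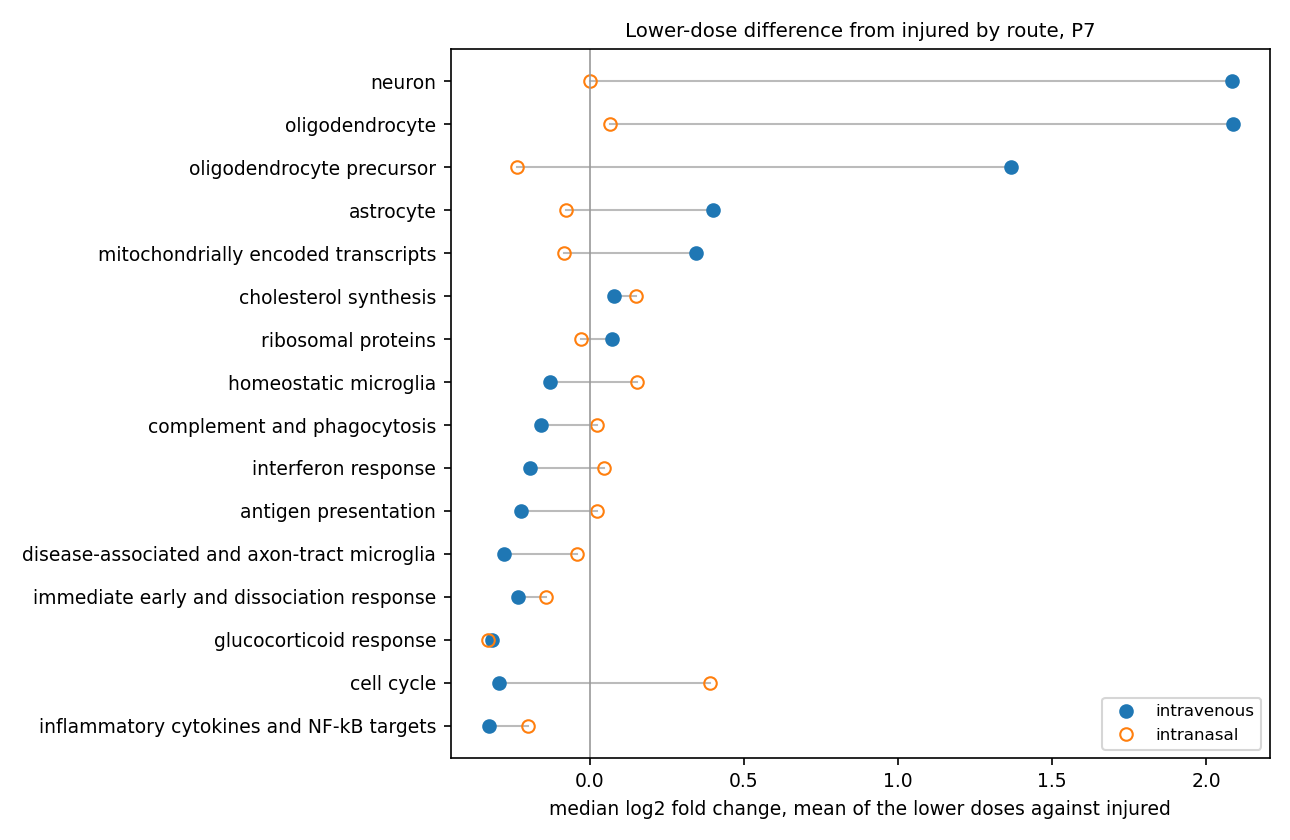
Median log2 fold change of the mean of the lower doses against injured, over the genes of each list, for the intravenous run (filled circles) and the intranasal run (open circles), joined by a line. The neuron list stands at 2.08 and 0.00, and the cell cycle list at -0.29 and 0.39, on opposite sides of 0.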

How the data were processed

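PolyA RNA of CD11b/c-selected brain cells was sequenced as 75 bp single reads. The authors deposited raw counts per gene. The tools were DESeq2 1.8.1, HTSeq 0.5.3, SAMtools and STAR 2.7.2d per the submitters' processing notes, and the genome build and annotation are not given in the sources used here. From the deposited counts, the 15 libraries of the intravenous P7 run (13.4 to 34.3 M counts each) were fitted together with edgeR 4.0.16 in R 4.3.3, using TMM scaling, filterByExpr (minimum count 10, minimum total 15; 14698 of 32623 genes kept) and quasi-likelihood tests with Benjamini-Hochberg adjustment at 0.05. Log2 CPM used a prior count of 2, and log2 fold changes are given ± SE. The route comparison fitted 30 libraries and 14851 genes, each run with its own injured group. A library was called neuron-rich at 1.5 log2 units above the median of the run for the neuron list. DESeq2 1.42.0, limma 3.58.1 with sample quality weights, other filters and scaling, a replicate block and left-out libraries were alternatives.

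The libraries and the 33 gene lists were chosen with earlier results of these data known. Genes named had the smallest p-values in a comparison or in a list (up to 4), or were called, or belonged to a set list of microglial genes. The genes of the reduced set, and Klf4 and Osgin1 for HuMSC20, were picked after their values were seen. The edgeR script was tested on simulated data. Promoters came from RefSeq tables (GRCr8), matched by symbol.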

Additional observations from a re-analysis of the deposited data

Results flagged for a closer look

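The mean log2 CPM of 33 gene lists was examined over the 6 lower-dose libraries for a library far from the others, by Dixon's test, which flags about 1 in 20 such groups by chance. HuMSC20 replicate 1 was highest for the neuron list at 4.961 (next library 2.922), the oligodendrocyte precursor list at 5.845 (next 3.925) and the oligodendrocyte list at 4.821 (next 3.407), and lowest for the cell cycle list at 5.511 (next 5.814). HuMSC50 replicate 3 was highest for ribosomal protein genes at 8.287 (next 7.82) and lowest for mitochondrially encoded transcripts at 6.876 (next 10.1), endothelial genes at 5.114 (next 5.814) and ependymal and choroid plexus genes at 2.644 (next 3.748). The 6 libraries come from 2 dose groups. What these 2 libraries have in common was not tested.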

How the results depend on the processing

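DESeq2 called 750 genes for HuMSC20 against injured, 21 for HuMSC50, 198 for the mean of both, 6 between the doses, 19 against HuMSC125, 528 against control, 62 for injured against control and 68 for the route difference. Limma with sample weights called 3 for HuMSC50, 4059 against HuMSC125, 670 against control, 188 for injury and 118 for route. Without the neuron-rich libraries 29 were called against control and 61 for route. Without HuMSC50 replicate 3 as well, a setting chosen after seeing the data, the counts were 81 for HuMSC20, 108 for the mean of both, 350 against control, 65 for injury and 72 for route. The calls of that setting against injured did not appear when only the neuron-rich libraries were left out. Without a filter on low counts the route count was 8. Leaving out 1 replicate gave 0 to 662 genes for HuMSC20, 0 to 1 for HuMSC50, 0 to 4 between the doses, 0 to 777 against HuMSC125, 5 to 124 against control, 2 to 5 for injury and 0 to 9 for route, and 0 each time for the mean of both against injured. The cause of these differences in counts was not tested. Deviations of same-numbered libraries of injured, HuMSC20 and HuMSC50 correlated at -0.168 to 0.277. With 3 libraries per group these values cannot settle whether the numbers pair the libraries. With the replicate as a block, 20 genes were called against control and 2 for injury, and 0 for each lower-dose comparison with injured. P2ry12 changed sign with limma (0.00056) and in the reduced set (0.032), and the oligodendrocyte median against HuMSC125 changed from -1.07 to 0.41 without the neuron-rich libraries and to 0.46 in the reduced set. Of the 38 genes examined for the mean of both doses against injured, 651 of 684 values under the alternatives kept direction and side of the threshold and 31 passed it. No comparison shows that a gene did not change.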

Other observations

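T and NK cell genes had a median difference from injured of -0.44 in the mean of both doses, with 7 of 8 tested members lower and none called, and -0.40 over 9 members in the reduced set. Mural cell, fibroblast and ependymal lists had reduced-set medians of 0.23, 0.25 and 0.27, with no member called. Border-associated macrophage genes were lower for all 12 tested members (median -0.20), and neutrophil genes for 11 of 14 (median -0.14). Over all genes the median difference was -0.01. The 20 targets of the lipid sensor LXR had a median of -0.19 and the 32 oxidative phosphorylation genes of -0.06, with no member called in either list.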
